A study of Mus with 14 samples.

Results

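Late Ermap-positive erythroid cells of the mouse bone marrow were chosen here by their own transcript counts. A cell entered when it held at least 1000 unique molecular identifiers (UMIs, one per captured transcript), at least 500 genes and under 10% mitochondrial UMIs, together with at least 2 UMIs of Klf1, at least 1 of Ermap, none of Gata2 and at most 2 of Pf4. In all, 1110 of 70038 kept cells in 14 libraries met the rule, which is 1.585%. Klf1, Ermap, Gata2 and Pf4 chose the cells, so their levels are given as a description and support nothing.

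The cells came from a serial transplantation study of Dnmt3a-mutant clonal haematopoiesis, in which a mutant stem cell clone feeds the blood, and of the receptors for tumour necrosis factor alpha. Each library was 1 mouse: lethally irradiated aged CD45.1+ hosts received marrow of primary recipients and were killed at week 20, and Lin-Kit+CD45.2+ donor cells were sorted from their bones and loaded on the 10x Chromium 3′ platform. All 4 groups descend from primary recipients given poly(I:C), which switches on the interferon-driven recombinase. Controls were 3 MxCre mice, whose label names the recombinase and no Dnmt3a change. The Dnmt3a genotype was sampled in 4 mice. The combined genotypes, Dnmt3a;Tnfr1KO in 3 mice and Dnmt3a;Tnfr2KO in 4, are called Tnfr1KO-labelled and Tnfr2KO for short. The labels name neither the Dnmt3a allele nor which mice share a primary donor, so the p-values measure only the spread between these mice. A sort on Kit limits what can be seen of the erythroid lineage, since Kit protein is lost as red cell precursors mature.

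Red cell precursors descend from progenitors that use Gata2, and pass to control by Gata1 and Klf1, which turn on the genes of heme synthesis, iron uptake, the red cell membrane and finally the globins. Carbonic anhydrase 1 (Car1) marks the committed progenitor stage in mouse marrow, whereas band 3 (Slc4a1), the erythroid heme enzyme Alas2 and the adult globins mark erythroblasts. Ermap is an erythroid membrane protein of the immunoglobulin superfamily, and Klf1 is a zinc finger activator of the adult globin and membrane genes.

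Libraries held 3042 to 9724 barcodes and 62416022 to 162869740 UMIs, and 1955 to 7745 cells were kept per library. Dnmt3a replicate 1 kept 1955 of 7257 barcodes and gave 14 of the cells studied here. Median depth of these cells ran from 11784 to 39945 UMIs per library. Pairs of libraries shared 1 to 17 barcodes, and no barcode was chosen in both libraries of a pair. Predicted doublets made up 5.86% of the chosen cells (65 of 1110) and 5.34% of kept cells, and 11 of the 42 cells of Dnmt3a replicate 3 were among them. Dnmt3a replicate 4 stood apart from the other 13 libraries in globin content and in several erythroid genes, and results that rest on it are given with and without it.

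The targeted genes were examined first, over all kept cells of each library and in counts per 1000000 UMIs (CPM), the scale used for levels throughout. Tnfrsf1b, which encodes Tnfr2, stood at 3.97, 5.56, 4.61 and 5.16 in Tnfr2KO replicates 1 to 4. It stood at 11.5, 17.3 and 13.5 in MxCre, at 15.5, 12.8, 14.4 and 17 in Dnmt3a and at 11.6, 10.4 and 16.4 in the Tnfr1KO-labelled libraries. The 4 Tnfr2KO values over all kept cells lay below all 10 others. Tnfrsf1a, which encodes Tnfr1, stood at 37.4, 33.4 and 37.9 in the Tnfr1KO-labelled libraries, at 41.5, 46.7 and 41.1 in MxCre, at 38.2, 42.0, 54.3 and 54.7 in Dnmt3a and at 49.1, 39.3, 54.5 and 64.0 in Tnfr2KO. The Tnfr1KO-labelled values were the lowest but lay close to the next libraries, so transcripts did not mark these mice as knockouts. Whether the 3′ reads cover the deleted part is not given in the sources used here. Dnmt3a itself stood at 21.6, 23.6 and 31 in MxCre, at 38.9, 29.4, 30.4 and 35 in Dnmt3a, at 18.9, 21.6 and 22.1 in the Tnfr1KO-labelled libraries and at 22.2, 22.9, 23.2 and 21.2 in Tnfr2KO. In the late erythroid cells both receptors were sparse: a Tnfrsf1a UMI was found in 17.1% of them and a Tnfrsf1b UMI in 5.86%, against 75.8% and 27.7% of the granulocyte-type cells described next. In the late cells Tnfrsf1b was not lower in Tnfr2KO, at 2.08, 3.58, 3.6 and 2.87 CPM (5, 22, 5 and 9 UMIs), than in MxCre (1.31, 1.37 and 0.488), Dnmt3a (1.63, 0, 7.46 and 1.72) or Tnfr1KO-labelled mice (2.0, 2.77 and 1.25). These counts rest on 0 to 22 UMIs per library, so the label was checked over all kept cells and not within the late cells.

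Of the 6 markers of the type, Klf1 and Ermap chose the cells, so the label was checked with Car2, Blvrb, Car1 and Mt2. Their levels were set against those in 2 other populations of the same libraries. One was the 3861 Gata2-positive Klf1 cells, which meet the same limits for Klf1 and Pf4 but hold Gata2. The other was a set of 31663 cells rich in the granule genes Mpo (at least 20 UMIs) and Elane (at least 5) and without Klf1. Car2, another carbonic anhydrase, had a median over libraries of 1959 CPM in the late cells, 1093 in the Gata2-positive cells and 22.6 in the Mpo- and Elane-rich cells. Blvrb, a biliverdin reductase of red cells, stood at 917, 540 and 18.6. Car1 stood at 2997, 2291 and 3.004, and the metallothionein Mt2 at 277, 162 and 1.27. Both were lowest in Dnmt3a replicate 4, with Mt2 at 10.3 and Car1 at 510. Car2 and Blvrb were detected in 99.9% of the late cells, Car1 in 84.4% and Mt2 in 56.8%.

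The late cells fell into 2 states that the rule did not separate. The alpha globin gene Hba-a1 had 10 or fewer UMIs in 718 cells (0 in 569) and over 300 in 330, with 44 cells between 31 and 300. Cells with at least 100 Hba-a1 UMIs are called globin-rich here, and the others globin-poor. This boundary was drawn after the values were seen, so the states are described and not tested. There were 356 globin-rich cells (32.1%) and 754 globin-poor ones. Dnmt3a replicate 4 gave 202 of the globin-rich cells, and in the other 13 libraries 154 of 904 cells (17.04%) were globin-rich. An Hba-a1 UMI was also found in 13.2% of the Mpo- and Elane-rich cells, with a library median of 16.1 CPM and a range of 1.80 to 191. The globin-poor cells had a library median of 47.4 CPM, with 7.12 to 132.8 in 12 libraries and 979.5 in Tnfr1KO-labelled replicate 1, where Slc4a1 stood at 95.5. Those 12 libraries lay within the range of the Mpo- and Elane-rich cells and that 1 lay above it.

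Per cell, the globin-rich state had a median of 937 Hba-a1 UMIs against 0, 20 Slc4a1 UMIs against 0, 12 of Alas2 against 0, and 8 of the transferrin receptor Tfrc against 3. It had 1 Car1 UMI against 97.5 in the globin-poor state and 0 Mt2 UMIs against 7. Car2 had 53 UMIs against 49 and Blvrb 28 against 24. In the 154 globin-rich cells outside Dnmt3a replicate 4 the medians were 667 Hba-a1, 14 Slc4a1, 7 Alas2 and 6 Tfrc UMIs. Car2 stood at 38.5 and Blvrb at 22, with Car1 at 1 and Mt2 at 0 as before. Car2 and Blvrb thus lay above the globin-poor medians with Dnmt3a replicate 4 and below them without it. These are raw UMIs per cell, and those 154 cells had a median depth of 8294 UMIs. The order is not scaled for depth and does not show the share of UMIs that either gene takes. Globin-rich cells were shallower, with a median of 12208 UMIs and 1887 genes against 32468 UMIs and 5046 genes. Mitochondrial UMIs made up 1.13% and 2.84%. Car1 had 10 or fewer UMIs in 282 of the 356 globin-rich cells (79.2%) and in 47 of the 754 globin-poor cells (6.23%). Over the 1110 cells, Spearman's rho with Hba-a1 was -0.687 for Car1 and 0.742 for Tfrc. Without the cells of Dnmt3a replicate 4 these were -0.475 and 0.602 over 904 cells, which share libraries and differ in depth.

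**Figure D1:**
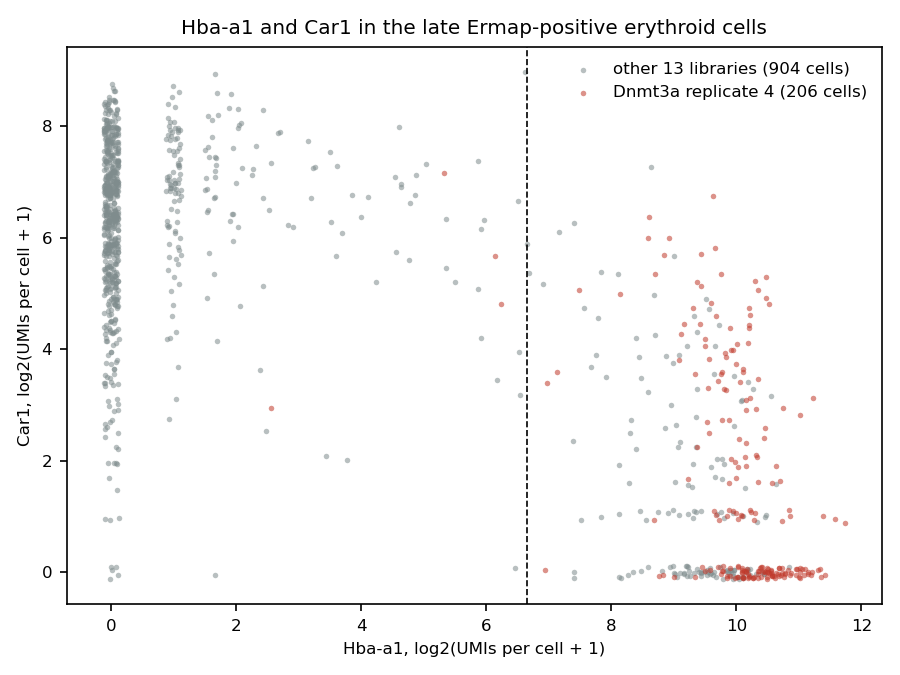
Each point is 1 of the 1110 late Ermap-positive erythroid cells, with Hba-a1 on the x axis and Car1 on the y axis, both as log2(UMIs per cell + 1) with small jitter, and Dnmt3a replicate 4 in red. The dashed line marks 100 Hba-a1 UMIs: 718 cells sit at the left with 10 or fewer Hba-a1 UMIs and mostly high Car1, and 330 sit at the right with over 300, most of them low in Car1.

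The gene groups that set the states apart were followed in sums of UMIs per library, in CPM, over the 9 libraries with at least 10 cells of each state. Globins took a median of 31.6% of all UMIs in the globin-rich sums and 0.0159% in the globin-poor ones, which lowers the share of other genes. Of 7166 genes with at least 10 CPM in either state, 642 were higher in globin-rich cells in every library (8.96%) and 2935 were lower (41.0%), with a median log2 difference of -0.70. With the globins left out of the totals the counts were 987 and 1777 and the median was -0.33. Differences below, on the log2(CPM + 10) scale, are to be read against that shift. Levels are medians over the 10 libraries with at least 10 globin-rich cells and the 13 with at least 10 globin-poor cells. Globin-rich sums rest on as few as 10 cells, with library medians of 5631 to 14123 UMIs per cell. Low levels and zeros there are near the floor, also among the genes counted as lower.

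Among erythroid transcription factors, 10 of 21 were higher in globin-rich cells in all 9 libraries (Klf1, which chose the cells, among them) and 4 were lower, with a median log2 difference of 0.56. Sox6, which silences embryonic globin genes, stood at 210 CPM against 4.49, and E2f2, a cell cycle regulator of erythroblasts, at 269 against 5.92. Klf3 (255 against 59.5), Tal1 (205 against 80.2), Zfpm1, the Gata1 cofactor (337 against 132), and Foxo3 (84.2 against 21.9) were also higher. Gata1 itself was 118 against 113, higher in 6 libraries and lower in 3. Myb, which keeps progenitors dividing and immature, was 11.4 against 379, and Bcl11a, the repressor of fetal-type globins, was 20.4 against 198. Both were lower in globin-rich cells in all 9 libraries.

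Heme synthesis and export genes were higher in globin-rich cells for 14 of 16 members, with a median log2 difference of 1.82. The first enzyme of the pathway has 2 isoforms: Alas2, the erythroid form, stood at 829 CPM against 0.364, and Alas1, the housekeeping form, at 11.2 against 30.2. Fech, which inserts iron (534 against 44.8), and Cpox (766 against 167) were higher in every library. Flvcr1, a heme exporter, was the member lower in all 9, at 0 against 13.5, which is near the floor of the globin-rich sums.

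Iron genes were less uniform, with 5 of 15 members higher and 3 lower. Slc25a37, the mitochondrial iron importer mitoferrin, stood at 852 against 16.8 CPM, Tfrc at 719 against 118, and the ferritin heavy chain gene Fth1 at 7805 against 2735. Tfr2, the second transferrin receptor, was 14.7 against 62.6.

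The 4 adult globin genes Hba-a1, Hba-a2, Hbb-bs and Hbb-bt were each higher in globin-rich cells, and Hba-a1, which drew the boundary, is no separate evidence. Hbb-bs stood at 168442 CPM against 66.9 and Hbb-bt at 51600 against 40.5. These pairs are near-identical copies, so counts may be split between them. Over all late cells the embryonic globins Hbb-y, Hbb-bh1 and Hba-x had library medians of 0, with at most 0.860 CPM in any library.

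Of 23 red cell membrane and skeleton genes, 21 were higher in globin-rich cells in all 9 libraries (Ermap, which chose the cells, among them) and 1 was lower, with a median log2 difference of 2.42. Slc4a1 stood at 1377 CPM against 0, the blood group gene Rhd at 1165 against 116, and Cd24a, a surface sialoglycoprotein, at 2297 against 256. Cd44, an adhesion receptor that falls during erythroblast maturation, was 11.3 against 56.8.

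Of 16 carbonic anhydrase, metallothionein and redox genes, 6 were higher, beside 8.96% of all genes, and 6 were lower, a share near the 41.0% of all genes. Prdx2, a peroxidase of red cells, stood at 5293 against 949, Gpx1 at 4980 against 1200 and Car2 at 4398 against 1766. Car1 was 503 against 3343, Mt1 51.5 against 943, and Mt2 16.1 against 307. Car1 and Mt2, 2 of the 6 markers given for the type, were thus low in the globin-rich state.

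Of 10 genes of erythropoietin and Kit signalling, 1 was higher in all 9 libraries and 4 were lower, a share near the 41.0% of all genes. Kit stood at 3.804 CPM in globin-rich cells against 106 although the cells were sorted for Kit protein, and Stat5a at 3.88 against 54.1, whereas the erythropoietin receptor gene Epor was 123 against 76.0, higher in 8 of 9 libraries.

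Among cell cycle genes, those of the G2 and M phases were most often high in the globin-rich state. Of 52 genes of the G2 and M phases, 34 were higher in all 9 libraries and none lower, with a median log2 difference of 1.04. Mki67 stood at 1329 against 291 CPM, and Ube2c at 1700 against 321. Of 42 S phase genes, 11 were higher and 2 lower, and their sums overlapped between the states (4236 to 7612 against 3535 to 5388 CPM). Of 6 inhibitors of cyclin-dependent kinases and D-type cyclins with at least 10 CPM, 3 were higher in all 9 libraries and 2 were lower. The inhibitor genes Cdkn2d (401 against 15.2) and Cdkn2c (150 against 31.3) and the cyclin gene Ccnd3 (457 against 62.5) were the higher ones, and Ccnd2 (7.61 against 125) and Ccnd1 (0 against 18.8) the lower ones. Cdkn1b was 77.7 against 19.6, higher in 8 of 9, and Cdkn1a, Cdkn1c and Cdkn2a had medians of 0 in globin-rich cells and below 1 CPM in globin-poor cells.

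Genes of mitophagy and remodelling, which clear organelles from red cells, were higher in all 9 libraries for 9 of 13 members and lower for 2. Among the higher were Trim10 (280 against 3.34), Map1lc3b (308 against 132) and Gabarapl2 (220 against 67.2). Interferon response genes gave 3 higher and 5 lower of 25, beside 8.96% higher and 41.0% lower of all genes. Isg15 (276 against 9.38) and Rsad2 (151 against 0.845) were high in globin-rich cells, while the immunoproteasome gene Psmb8 was low (10.1 against 199). Early progenitor genes gave 0 higher and 3 lower of 8, NF-kB targets 0 and 3 of 10, p53 targets 1 and 4 of 10, and DNA methylation genes 1 and 2 of 8. Beside the same shares of all genes, nothing is read from these small counts.

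Ranked over all genes with at least 50 CPM, the leading genes of the globin-rich state after the globins included Slc4a1, Alas2, Slc25a37, Apol11b, Mgst3, Btg2, Hemgn and Gch1. Those of the globin-poor state were S100a10, Apoe, Myb, Mybbp1a, Crip1, Tmsb10, Rangrf, Psmb8 and the metallothioneins Mt1 and Mt2. Apoe stood at 405 against 3.88 and Mybbp1a at 220 against 7.47 CPM over the 9 libraries.

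**Figure D2:**
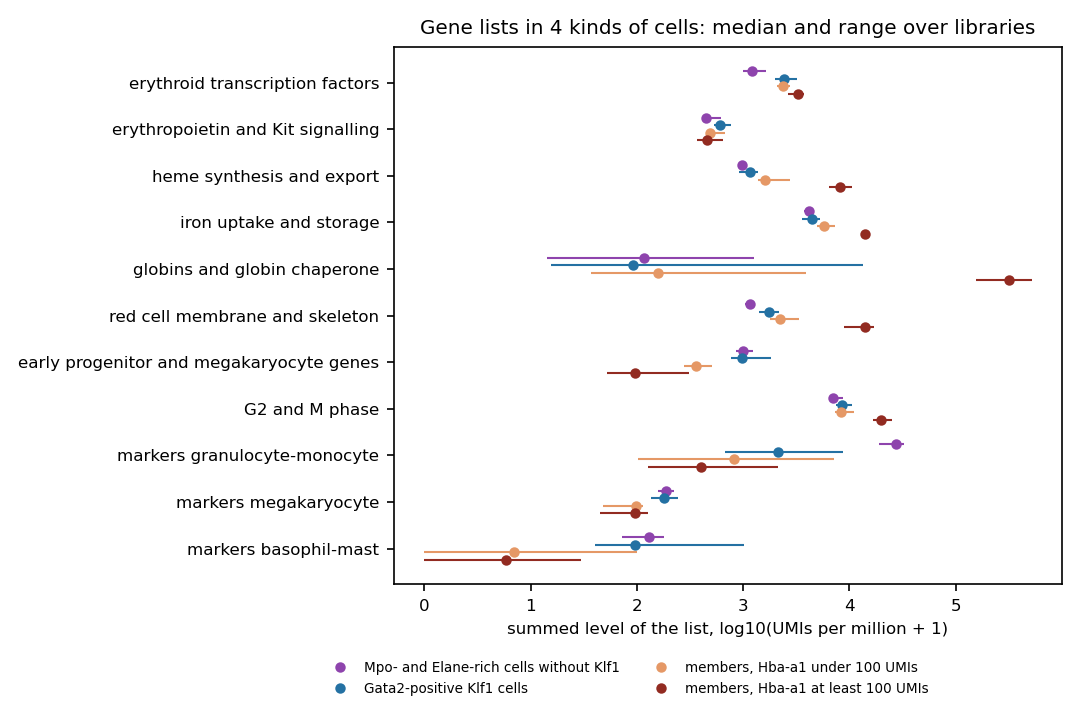
Summed level of each gene list, as log10(UMIs CPM + 1) on the x axis, in 4 kinds of cells, with the dot at the median and the line from the lowest to the highest library. The globin-rich late cells (dark red) stand to the right of the other 3 kinds for globins, heme, iron, membrane and G2 and M phase genes, and to the left for early progenitor genes.

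The globin-poor cells differed from the Gata2-positive Klf1 cells by smaller amounts. Over 13 libraries, 534 of 7379 genes were higher in the globin-poor cells in every library (7.24%) and 799 were lower (10.8%), with a median log2 difference of -0.02. Absence of Gata2 and presence of Ermap chose the late cells, so this is again a description. Membrane genes were higher in all 13 libraries for 11 of 19 members, with Ermap among them by the rule. Heme genes were higher for 6 of 15, iron genes for 6 of 15 and the carbonic anhydrase, metallothionein and redox genes for 8 of 16. In each list 0 to 1 were lower. Rhd led, at 116 CPM against 45.4, followed by Hebp1, Ctse, Cldn13, Nxpe2 and C1qtnf12. Tfrc stood at 118 against 79.8, Epor at 76.0 against 53.1, Car1 at 3343 against 2291 and Mt2 at 307 against 162.

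All 12 early progenitor genes with at least 10 CPM in either population were lower in the globin-poor cells in all 13 libraries, Gata2 by the rule. Cd34, the stem and progenitor surface sialomucin, stood at 3.56 CPM against 30.8, the platelet integrin gene Itga2b at 3.16 against 29.5, Meis1 at 5.62 against 35.2 and Angpt1 at 15.9 against 71.9. Summed medians of the markers of other cell types were 5.97 CPM against 95.5 for basophil and mast cells (up to 1020 in 1 Gata2-positive library), 827 against 2128 for granulocytes and monocytes and 36.7 against 211 for T, NK and innate lymphoid cells. The granulocyte-monocyte sums overlapped widely, at 102 to 7125 against 679 to 8640. Among markers with at least 10 CPM, those lower in all 13 libraries were 3 of 3 for basophil and mast cells. They were 1 of 7 for granulocytes and monocytes, near the 10.8% of all genes, and 1 of 1 for T, NK and innate lymphoid cells. The part of these markers in the other values was not tested. Kit was 106 against 137, lower in 12 of 13 libraries, and Myb 379 against 471, lower in all 13. The G2 and M phase genes, in contrast, gave 1 higher and 4 lower of 52, and Mki67 was 291 against 295. Alas2 (0.364 against 0.409) and Slc4a1 (0 against 0.0276) were near 0 in both.

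Transcripts of other cell types were measured in the late cells. The 10 granulocyte-monocyte markers summed to 118 to 6459 CPM per library (median 937), against 19012 to 32840 in the Mpo- and Elane-rich cells. Mpo and Elane are on this list and chose the latter cells, so that contrast is a description. The highest was Dnmt3a replicate 3, where 14 of 42 cells held at least 10 Mpo UMIs, and Tnfr2KO replicate 1 followed at 3667, with 12 of 96 such cells. Over all libraries 60 of the 1110 cells did. Megakaryocyte markers summed to 46.0 to 115 CPM (180 in Gata2-positive cells). Pf4, which is on that list, was limited to at most 2 UMIs in both kinds of cells. Basophil and mast cell markers summed to 1.63 to 91.03, the latter figure again in Dnmt3a replicate 3. B-lymphoid markers reached 227 in Dnmt3a replicate 4 and at most 6.71 elsewhere. Dendritic markers summed to 120 to 212 CPM (median 158, and 210 in Gata2-positive cells). T, NK and innate lymphoid markers summed to 14.4 to 172 CPM (median 37.9, and 211 in Gata2-positive cells). Single members of these lists, Gp1bb, Prss34, Siglech and Cd3e, had no UMI in the late cells (0 of 1110), while other members were present. A count of 0 allows a share of cells with a UMI of up to 0.270%, for counting error only.

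Cells just outside the rule were compared with those just inside it, without a test. The 166 cells with 1 Klf1 UMI that met the other limits held 1542 CPM of Car1 and 1259 of Mpo, and the 142 cells with 2 held 1996 and 774. The 174 cells without Ermap held 1296 CPM of Car1, 594 of Car2 and 83.2 of Cpa3, against 2742, 1572 and 11.6 in the 110 cells with 1 Ermap UMI. The 715 cells with 1 Gata2 UMI were erythroid by the same genes (3209 Car1 CPM) and held little globin, at 141 Hba-a1 CPM against 11445 in the chosen cells as a whole. That pooled level includes Dnmt3a replicate 4, which stood at 71579 Hba-a1 CPM, against 1403 to 3462 in the other Dnmt3a mice. The single cell outside by Pf4 held 145274 Hba-a1 CPM.

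The share of late cells asks how far each genotype fills this stage of the lineage. In MxCre replicates 1 to 3 they made up 1.65%, 2.16% and 1.76% of kept cells. In Dnmt3a replicates 1 to 4 the shares were 0.716%, 1.23%, 0.732% and 3.63%. The Tnfr1KO-labelled replicates had 0.524%, 2.17% and 1.67%, and the Tnfr2KO replicates 1.24%, 2.64%, 1.01% and 1.25%. In these counts Dnmt3a replicates 1 to 3 lay below all MxCre mice and replicate 4 above them, and the other groups overlapped both. The separation of replicates 1 to 3 did not hold with every cell thinned to the same depth and shallower cells left out. The shares were then 0.708%, 0.891% and 0.439% in these mice and 1.19%, 1.07% and 0.828% in MxCre. Dnmt3a replicate 2 thus lay above MxCre replicate 3, and Dnmt3a replicate 4 stayed highest at 3.07%.

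The mean share was 1.85% ± 0.266 (SD, n = 3) for MxCre and 1.58% ± 1.39 (SD, n = 4) for Dnmt3a mice. Tnfr1KO-labelled mice averaged 1.45% ± 0.843 (SD, n = 3), and Tnfr2KO mice 1.54% ± 0.746 (SD, n = 4). Dnmt3a differed from MxCre by -0.277 percentage points (two-sided exact permutation p 0.8286), Tnfr1KO-labelled from Dnmt3a by -0.123 (exact p 0.943), Tnfr2KO from Dnmt3a by -0.0417 (exact p 1) and Tnfr2KO from Tnfr1KO-labelled by 0.0813 (exact p 0.886). The smallest p these designs allow is 0.0286, and all adjusted p over the 8 tests of share and ratio were 1. Without Dnmt3a replicate 4 the first 3 differences were -0.961, 0.560 and 0.642. With every cell thinned to 5000 UMIs, which left out 660, 2290, 2242 and 1684 shallower cells, the group means were 1.03% ± 0.185 (n = 3), 1.28% ± 1.21 (n = 4), 0.860% ± 0.540 (n = 3) and 0.639% ± 0.386 (n = 4).

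The make-up of the late cells varied more than their share. Globin-rich cells were 15.7%, 37.1% and 37.0% of them in MxCre, 14.3%, 2.94%, 23.8% and 98.1% in Dnmt3a, 44.1%, 12.5% and 33.96% in Tnfr1KO-labelled and 5.21%, 1.92%, 15.4% and 12.9% in Tnfr2KO. The 4 Tnfr2KO mice lay below the lowest MxCre mouse but overlapped Dnmt3a and Tnfr1KO-labelled mice. In Dnmt3a replicate 4, 4 cells were globin-poor, and its globin-rich cells were deeper than those elsewhere (median 14123 against 8294 UMIs) with more Hba-a1 (1146 against 667 UMIs).

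**Figure D3:**
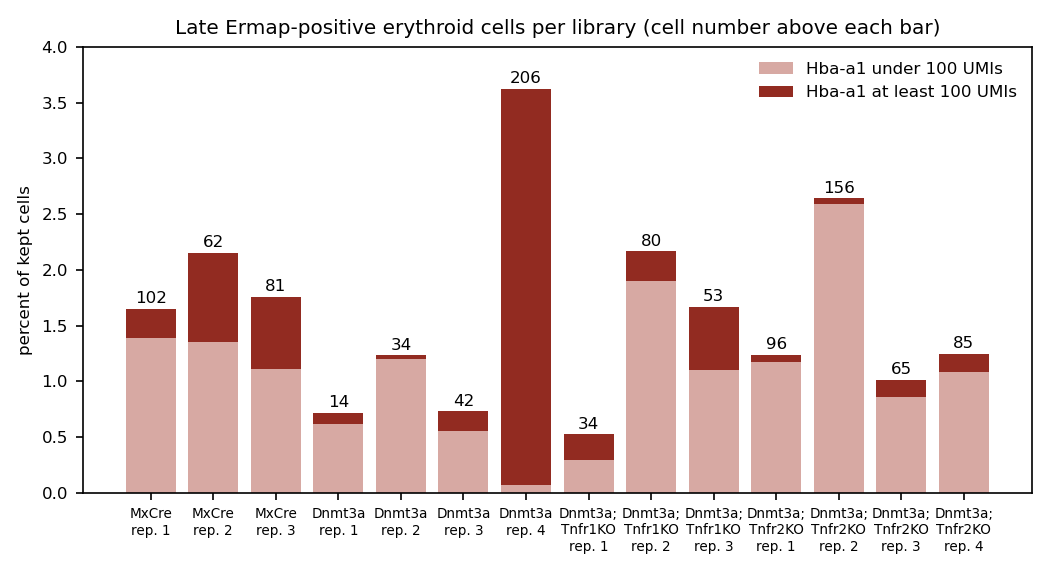
Late Ermap-positive erythroid cells as a percent of kept cells (y axis, from 0) in each of 14 libraries, split by Hba-a1 UMIs, with the cell number above each bar. Dnmt3a replicate 4 reaches 3.63% and is nearly all globin-rich, while the dark segment is thin in the 4 Tnfr2KO libraries and in Dnmt3a replicates 1 to 3.

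Set against the stage before it, the log2 ratio of late to Gata2-positive Klf1 cells was -3.10, -1.70 and -1.31 in MxCre, -3.51, -3.08, -1.66 and 2.17 in Dnmt3a, -1.14, -2.34 and -1.34 in Tnfr1KO-labelled, and -1.68, -2.01, -1.15 and -1.39 in Tnfr2KO, with 1 cell added on each side. In these unthinned counts Dnmt3a replicate 4 was the library with more late than Gata2-positive cells (206 and 45), and the other 13 overlapped across groups. Means were -2.03 ± 0.942 (SD, n = 3), -1.52 ± 2.58 (n = 4), -1.61 ± 0.641 (n = 3) and -1.56 ± 0.374 (n = 4). The 4 differences, in the order used for the share, were 0.51, -0.09, -0.04 and 0.05, with exact two-sided permutation p of 0.8286, 1, 0.971 and 0.971. Without Dnmt3a replicate 4 the first 3 were -0.72, 1.14 and 1.19, so that library turned the direction of each. The counts changed with depth: thinning took MxCre replicate 1 from 102 late and 881 Gata2-positive cells to 71 and 119. Late cells then also outnumbered Gata2-positive cells in MxCre replicate 3 (36 and 35) and Dnmt3a replicate 3 (24 and 20). The same held in Tnfr1KO-labelled replicates 1 (16 and 15) and 3 (25 and 17). Of the 3861 Gata2-positive Klf1 cells, 2301 held an Ermap UMI too.

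Levels of the erythroid genes were then taken over all late cells of a library. Hba-a1 stood at 4659, 11182 and 9281 CPM in MxCre replicates 1 to 3, and at 3352, 1403, 3462 and 71579 in Dnmt3a replicates 1 to 4. It stood at 14137, 2670 and 8504 in the Tnfr1KO-labelled libraries and at 473, 354, 5551 and 3336 in Tnfr2KO. Dnmt3a replicate 4 was highest, Tnfr2KO replicates 1 and 2 were lowest, and the remaining libraries overlapped between groups. Within globin-rich cells Hba-a1 stood at 111334 and 106608 CPM in Tnfr2KO replicates 3 and 4, above the 29160 to 74670 of the other 8 libraries with at least 10 such cells. Tnfr2KO replicates 1 and 2 had 5 and 3 such cells. Over all late cells Alas2 stood at 1059 in Dnmt3a replicate 4 and at 3.10 to 274 elsewhere, and Slc4a1 at 1418 against 6.52 to 364.

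Tfrc stood at 159, 210 and 148 CPM in MxCre, 423, 237, 204 and 750 in Dnmt3a, 264, 126 and 242 in Tnfr1KO-labelled and 84.5, 122, 195 and 99.3 in Tnfr2KO. Each Dnmt3a value lay above each Tnfr2KO value, with 204 and 195 the closest. The share of all genes that separate these groups in this way was not counted. In the expression test described below Tfrc was not called (edgeR adjusted p 0.159, and 0.855 without Dnmt3a replicate 4). Car1 stood at 2976, 3019 and 2708 in MxCre, 2896, 3705, 1846 and 510 in Dnmt3a, 2352, 3224 and 3255 in Tnfr1KO-labelled and 2854, 3439, 3869 and 3951 in Tnfr2KO, so Dnmt3a replicate 4 was lowest. Mt2 ran from 148 to 405 in 13 libraries and was 10.3 in that one, and Kit ran from 61.6 to 187 and was 10.04. Gata1 ran from 92.4 to 138 and Epor from 59.5 to 116, and Klf1 ran from 206 to 278 with 435 in Dnmt3a replicate 4.

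**Figure D4:**
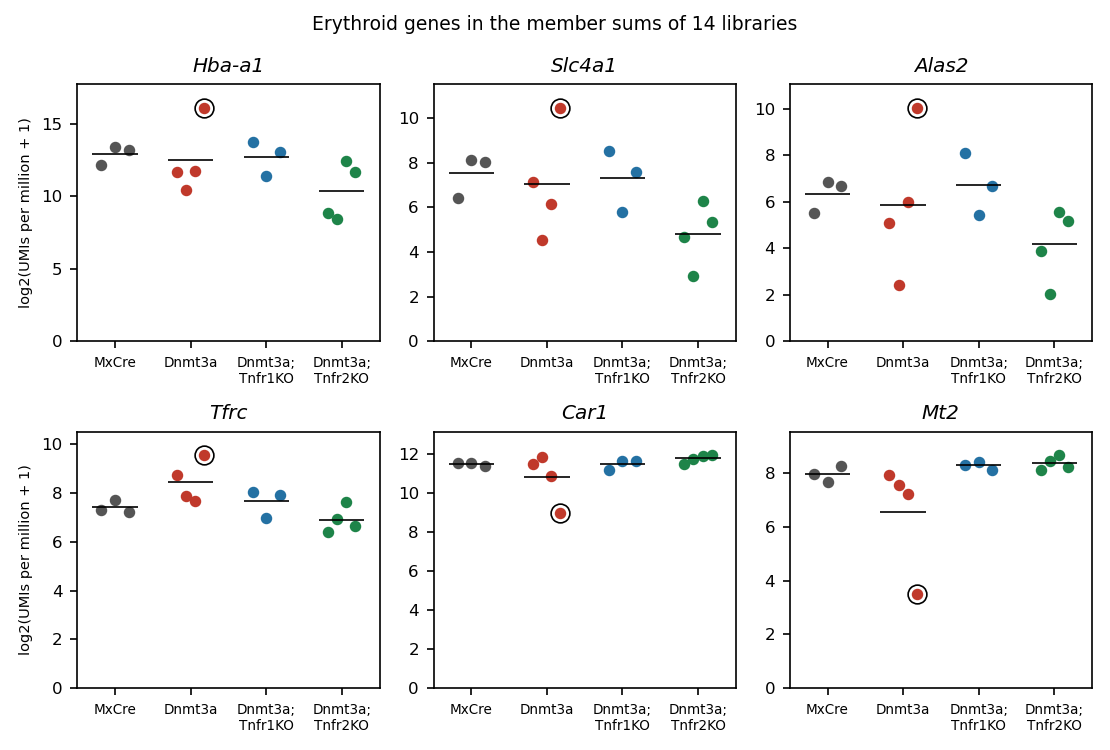
Level of 6 erythroid genes in the late cells of 14 libraries, as log2(UMIs CPM + 1), with 1 point per library, a line at the group mean and a ring around Dnmt3a replicate 4. The ringed library is highest for Hba-a1, Slc4a1, Alas2 and Tfrc and lowest for Car1 and Mt2, and the other 13 overlap between groups for most genes.

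Expression between genotypes was tested on the summed UMIs of the late cells with edgeR's quasi-likelihood test, over 13 libraries and 8927 genes. Dnmt3a replicate 1 was left out because it has fewer than 20 of the cells. A gene was called at a Benjamini-Hochberg adjusted p below 0.05. Dnmt3a against MxCre, which asks what the mutation changes, gave no called gene (0% of those tested). Before adjustment 1275 genes had a p under 0.05, and DESeq2 called 22. Tnfr1KO-labelled against Dnmt3a gave none either (0%), with 887 such genes and 15 DESeq2 calls. Tnfr2KO against Dnmt3a gave 3 (0.0336%, of which 1 rose and 2 fell), with 1823 before adjustment and 187 by DESeq2. Tnfr2KO against Tnfr1KO-labelled gave 1 that fell (0.0112%), with 126 and 3. Single Dnmt3a mice set these counts: without replicate 2 edgeR called 187, 0 and 1360 genes in the first 3 comparisons, without replicate 3 it called 0, 0 and 656, and without replicate 4 it called 2, 1 and 3. In Tnfr2KO against Dnmt3a it called 0 without Tnfr2KO replicate 3, 1 without replicate 2 or 4, and 2 without replicate 1.

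Klf1 and Ermap chose the cells and are set aside here. None of the other 13 erythroid and targeted genes that were followed by name and could be tested was called in any comparison. Their edgeR adjusted p ran from 0.325 to 0.683 in Dnmt3a against MxCre, from 0.493 to 0.875 in Tnfr1KO-labelled against Dnmt3a, and from 0.159 to 0.795 in Tnfr2KO against Dnmt3a, and was 1 throughout in the last comparison. Without Dnmt3a replicate 4, 8, 9 and 5 of the 13 had the opposite sign in the first 3. Hba-a1 had log2 fold changes of 2.21, -2.15 and -4.02 in these, and -1.94, 2.0 and 0.14 without that library. Without Dnmt3a replicate 2, Car1 was called in Dnmt3a against MxCre (-1.26, edgeR adjusted p 0.0372) and, with Hba-a1, in Tnfr2KO against Dnmt3a (1.51 and -4.65, edgeR adjusted p 0.0209 and 0.0279). Tnfrsf1b was too low to be tested.

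The gene lists behaved likewise, with 0 called members in each list and comparison. In Dnmt3a against MxCre, 23 of 23 membrane genes, Ermap among them, had positive log2 fold changes (median 1.58), as did 15 of 16 heme genes (1.28), 51 of 52 G2 and M phase genes (0.90) and 41 of 42 S phase genes (0.54), beside a median over all tested genes of 0.06. Without Dnmt3a replicate 4 the membrane genes were 3 positive and 20 negative (-0.52), heme genes 1 and 15 (-0.28), G2 and M phase genes 25 and 27 (-0.02) and S phase genes 24 and 18 (0.02). In Tnfr1KO-labelled against Dnmt3a the membrane genes were 1 positive and 22 negative (-1.31) and the heme genes 1 and 15 (-0.88). Without Dnmt3a replicate 4 they were 22 and 1 (0.78) and 15 and 1 (0.56). In Tnfr2KO against Dnmt3a the G2 and M phase genes were 0 positive and 52 negative (median -1.08) and the membrane genes 1 and 22 (-2.06), and without that library they were 13 and 39 (-0.10) and 7 and 16 (-0.07). The early progenitor genes, lower in later cells, were 9 positive and 3 negative in Dnmt3a against MxCre (0.37) and 11 and 1 without Dnmt3a replicate 4 (0.58). The 8 granulocyte-monocyte markers tested were all positive in both (2.22 and 2.16) and all negative in Tnfr2KO against Dnmt3a with and without that library (medians -0.72 and -0.73), and their summed level ran from 118 to 1055 CPM in MxCre, from 124 to 6459 in Dnmt3a and from 820 to 3667 in Tnfr2KO. Their part in the other values was not tested. These comparisons share the Dnmt3a libraries, so their opposite signs are not separate results.

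The Dnmt3a group is not one of the 2 compared in Tnfr2KO against Tnfr1KO-labelled. It was still in the model, so it entered the scaling, the gene filter and the spread behind the p-values. Before adjustment 126 genes had an edgeR p under 0.05 in that model and 419 with only the 2 groups compared. Each fit called 1 gene. All 23 membrane genes were lower in Tnfr2KO (median -0.81), as were 15 of 16 heme genes (-0.60), 4 of 4 globins (-1.88) and 51 of 52 G2 and M phase genes (-0.34), beside a median over all tested genes of 0.01, and none was called in the main fit (edgeR adjusted p 1 for each). Granulocyte-monocyte markers went the other way, with 7 of 8 positive (median 1.16) and summed levels of 204 to 2051 CPM in Tnfr1KO-labelled and 820 to 3667 in Tnfr2KO mice. Globin-rich cells made up 12.5% to 44.1% of the late cells in Tnfr1KO-labelled mice and 1.92% to 15.4% in Tnfr2KO mice. The part of either difference in the gene values was not tested.

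C1qtnf12 was the gene called in both Tnfr2KO comparisons. It encodes a secreted protein of the C1q and TNF-related family. In CPM scaled by edgeR's TMM factors (TMM-scaled CPM), it stood at 40.7, 17.98, 42.5 and 58.9 in Tnfr2KO replicates 1 to 4, at 332, 375 and 187 in Dnmt3a replicates 2 to 4, at 424, 349 and 379 in Tnfr1KO-labelled and at 267, 289 and 409 in MxCre. The 4 Tnfr2KO mice lay below the other 9 without overlap. The log2 fold change was -2.90 against Dnmt3a (SE 0.342, edgeR adjusted p 0.00939) and -3.27 against Tnfr1KO-labelled (SE 0.346, edgeR adjusted p 0.00278). Over 16 settings, DESeq2 included, it ran from -3.24 to -2.65 and was called in 14 for the first, with an adjusted p of up to 0.26, and from -3.54 to -3.02 and was called in all 16 for the second.

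The low level was also present outside the late cells. In Gata2-positive Klf1 cells C1qtnf12 stood at 9.44 to 29.5 CPM in Tnfr2KO and 111 to 251 in the other groups, and in the Mpo- and Elane-rich cells, where it was scarce, at 5.91 to 12.9 and 15.8 to 27.04. The difference between its change in late and in Gata2-positive cells was 0.42 on the log2 scale (SE 0.346, edgeR adjusted p 0.57), which was not called. C1qtnf12 was among the leading genes of globin-poor over Gata2-positive cells (362 against 169 CPM over 13 libraries).

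The other 2 calls of Tnfr2KO against Dnmt3a were Gm47283 and CAAA01118383.1, gene models that the sources used here do not describe. Gm47283 stood at 246, 477, 383 and 423 TMM-scaled CPM in Tnfr2KO, 95.3, 98.6 and 58.7 in Dnmt3a, 111, 229 and 302 in Tnfr1KO-labelled and 213, 199 and 206 in MxCre. Its log2 fold change was 2.19 (SE 0.324, edgeR adjusted p 0.0377), and it was called in 11 of 16 settings, with an adjusted p of up to 0.26. The Dnmt3a mice were lowest for it and Tnfr2KO overlapped Tnfr1KO-labelled. CAAA01118383.1 stood at 16.0, 11.3, 14.4 and 18.1 in Tnfr2KO, 33.9, 41.1 and 52.95 in Dnmt3a, 40.7, 31.1 and 29.8 in Tnfr1KO-labelled and 24.5, 29.6 and 34.4 in MxCre. The Tnfr2KO mice lay below all others (log2 fold change -1.53, SE 0.225, edgeR adjusted p 0.0377), and it was called in 6 of 16 settings, with an adjusted p of up to 0.418.

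Without Dnmt3a replicate 4, 3 more genes were called. Kcnq1ot1, the imprinted antisense RNA of the Kcnq1 locus, stood at 342 and 339 TMM-scaled CPM in Dnmt3a replicates 2 and 3 and 135 in replicate 4, at 129 to 152 in MxCre, 107 to 139 in Tnfr1KO-labelled and 163 to 269 in Tnfr2KO. Its log2 fold change without replicate 4 was 1.24 against MxCre (edgeR adjusted p 0.0461) and -1.42 in Tnfr1KO-labelled against Dnmt3a (edgeR adjusted p 0.0230). Prss50, a testis serine protease gene, stood at 123 and 28.7 in those mice and 1.78 in replicate 4, and at 2.28, 3.44 and 11.0 in MxCre (3.77, edgeR adjusted p 0.0461). It ran from 22.5 to 47.1 in Tnfr1KO-labelled and from 40.7 to 69.2 in Tnfr2KO mice. Pusl1, a pseudouridine synthase gene, stood at 2.88 to 11.5 in Tnfr2KO, at 37.8 and 37.2 in Dnmt3a replicates 2 and 3 and at 8.45 in replicate 4 (-2.03 in Tnfr2KO against Dnmt3a, edgeR adjusted p 0.0161). It ran from 27.5 to 40.8 in MxCre and from 25.7 to 38.7 in Tnfr1KO-labelled mice. With replicate 4 kept, the adjusted p of these calls were 0.323, 0.493, 0.323 and 0.159. CAAA01118383.1 was not called without it (edgeR adjusted p 0.0562).

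These genes were set beside the cell state, since 98.1% of the late cells of Dnmt3a replicate 4 were globin-rich. In globin-rich cells Pusl1 stood at 0 to 19.1 CPM and Prss50 at 0 to 7.75 over 10 libraries, against means of 45.3 ± 4.67 and 83.05 ± 49.2 (SD, n = 3) in globin-poor Dnmt3a cells. Kcnq1ot1 was 84.7 CPM in the globin-rich cells of replicate 4, within the 0 to 274 of the other 9 libraries. In Gata2-positive cells Kcnq1ot1 ran from 338 to 728 CPM in the 4 Dnmt3a mice and from 212 to 215 in MxCre, and in the Mpo- and Elane-rich cells from 245 to 470 and from 114 to 125. All 4 Dnmt3a mice, replicate 4 included, lay above MxCre in both, and the share of all genes that separate in this way was not counted. Tnfr1KO-labelled mice, which carry the Dnmt3a label too, overlapped MxCre, at 200 to 321 CPM and 107 to 124 CPM. Tnfr2KO mice stood at 218 to 334 CPM and 132 to 187 CPM. The part of the cell state in the values of replicate 4 was not tested.

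Levels of the other called genes were also taken outside the late cells. In Gata2-positive cells the means of Gm47283 were 352 CPM in Tnfr2KO, 92.8 in Dnmt3a, 244 in Tnfr1KO-labelled and 221 in MxCre. CAAA01118383.1 ran from 12.1 to 16.8 CPM there in Tnfr2KO and from 23.6 to 43.1 in the other groups, and Pusl1 from 2.24 to 8.89 and from 20.7 to 37.3. These are levels with no test.

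**Figure D5:**
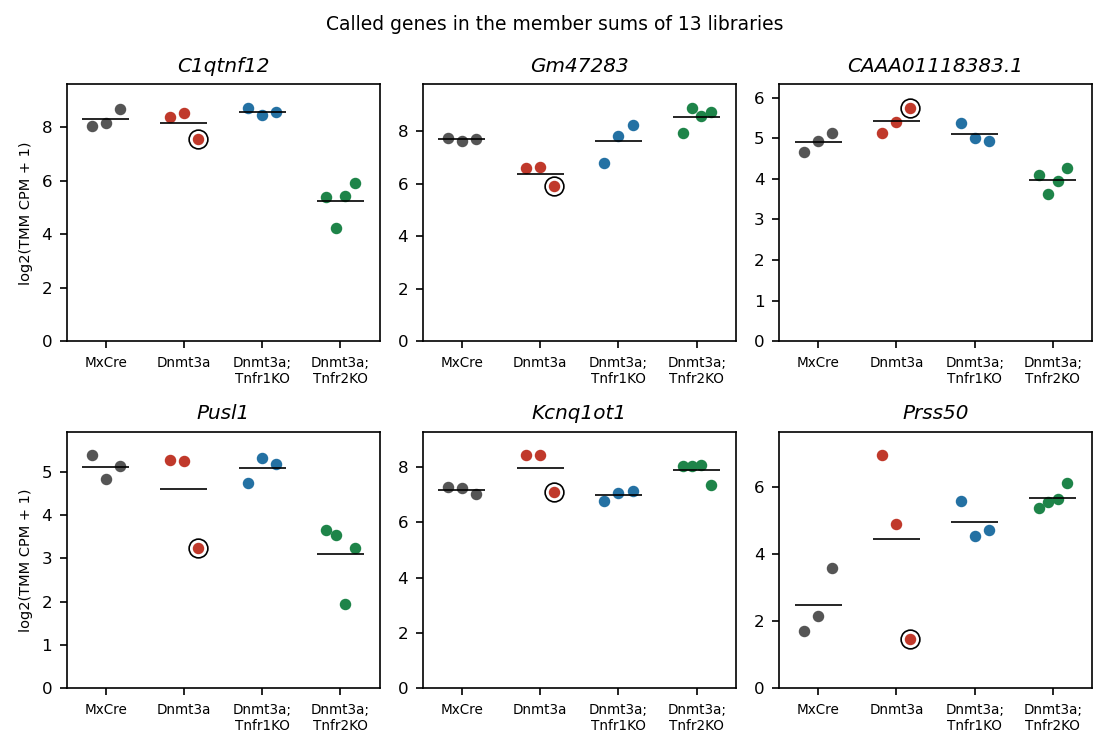
Level of 6 genes in the late cells of 13 libraries, as log2(TMM-scaled CPM + 1), with 1 point per library, a line at the group mean and a ring around Dnmt3a replicate 4. C1qtnf12 is low in the 4 Tnfr2KO libraries, which stand at 17.98 to 58.9 against 187 to 424 elsewhere, and for Pusl1, Kcnq1ot1 and Prss50 the ringed library, 98.1% of whose late cells are globin-rich, is lower than the other Dnmt3a libraries.

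C1qtnf12 lies on chromosome 4 (155962312 to 155966629 in RefSeq's GRCm38.p6 annotation), as does Pusl1 (155888857 to 155891858), and both are 10.7 Mb from Tnfrsf1b (145212368 to 145246870). Over all 8927 tested genes, Tnfr2KO levels lay above those of the other 9 libraries for 16 (0.179%) and below for 21 (0.235%). Of the 188 tested genes within 15 Mb of Tnfrsf1b, these were Zfp990, Zfp992, Zfp985, Lrrc47 and Ints11 above and C1qtnf12 below. C1qtnf12 prompted the look at this stretch, and Zfp990 and Zfp985 (means of 22.8 and 5.8 TMM-scaled CPM against 0 and 0.7) are at or near 0 in the other 9 libraries, so the number of these genes is a description and supports nothing. Zfp990, a zinc finger gene 0.298 Mb from Tnfrsf1b that was picked out after its values were seen, had no count in the other 9 libraries and 13.6, 14.3, 44.0 and 19.3 TMM-scaled CPM in Tnfr2KO. The Tnfr2KO label and this stretch of chromosome 4 cannot be told apart in these groups.

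Whether a genotype acted differently in late and in Gata2-positive cells was tested with an interaction term over 10277 genes. EdgeR called 0 genes in Dnmt3a against MxCre (0%), 1 in Tnfr1KO-labelled against Dnmt3a (0.00973%), 1 in Tnfr2KO against Dnmt3a (0.00973%) and 0 in Tnfr2KO against Tnfr1KO-labelled (0%), and DESeq2 called 0 in each. Before adjustment 531, 425, 1168 and 183 genes had a p under 0.05. The gene in both was Retnlg, a neutrophil gene (edgeR adjusted p 0.0497 and 0.00146). Dnmt3a replicate 4 held 573 Retnlg UMIs in 28 late cells, 294 of them in 1 cell, and late cells of no other library held more than 3. The Gata2-positive cells, the other side of this term, held 438 in Tnfr2KO replicate 3, 262 in MxCre replicate 1, 89 in Tnfr1KO-labelled replicate 2, 69 in Tnfr2KO replicate 4 and at most 15 elsewhere. Without that library or without predicted doublets, edgeR called 0 genes in both comparisons. It also called 0 in the first without any 1 of the Tnfr1KO-labelled mice and in the second without Tnfr2KO replicate 3. Without Dnmt3a replicate 2 it called 3, 1 and 2 genes in the 3 comparisons with Dnmt3a, and in Dnmt3a against MxCre it called 1 without MxCre replicate 3 or Dnmt3a replicate 3.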

How the data were processed

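Droplet 3′ RNA sequencing was analysed in 14 libraries of sorted marrow cells, 1 per mouse. The authors deposited whole-number UMI counts per gene and barcode, not normalized, made with Cell Ranger 6.0.0 and bcl2fastq 2.20.0.422 on mm10 (GRCm38), per the submitters' processing notes. The files list 32285 genes.

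The members, gene lists and tests were chosen with earlier results of these data known. Doublets were scored with Scrublet in scanpy 1.11.5 (top 0.8% per 1000 barcodes) and kept. Shares and ratios were compared by two-sided exact permutation tests (scipy 1.17.1), adjusted over 8 tests. Counts were summed per library (at least 20 cells) and tested with edgeR 4.0.16 in R 4.3.3 (TMM, filterByExpr, quasi-likelihood, all 4 groups in a single model, Benjamini-Hochberg). Summed depth was 497996 to 6109835 UMIs. TMM factors were 0.938 to 1.15, and 0.648 in Dnmt3a replicate 4. On simulated data for Tnfr2KO against Dnmt3a, with 8775 genes, 182 of 200 genes changed 4-fold were recovered with 14 false calls. The simulation gave all genes the same dispersion (0.0868) and held no library that stood apart as Dnmt3a replicate 4 does. It therefore does not show how many such changes the real fit would find. Genes were named if called, with no overlap of groups and a mean of 10 CPM or more on either side, up to 10 per direction, beside the markers, 7 further erythroid genes and the targeted genes. Levels by cell state used counts per 1000000 UMIs (CPM) over libraries with at least 10 cells. Alternatives were DESeq2 1.42.0, other scaling, filters, cell rules, thinning, a replicate block and leaving out each library. Some genes are not reported here, and no sequences are printed.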

Additional observations from a re-analysis of the deposited data

Results flagged for a closer look

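In groups of 4 mice, 8 of 48 values had their extreme mouse further from the others than chance gives in about 1 of 20 groups (Dixon's ratio), and 6 of the 8 were in Dnmt3a replicate 4. In that mouse the late erythroid cells had 4379 CPM of Car2 (other Dnmt3a mice 1908 to 2250), 2170 of Blvrb (883 to 951), 71579 of Hba-a1 (1403 to 3462), 55434 of Hbb-bt (824 to 3187), 1418 of Slc4a1 (22.2 to 140) and 1059 of Alas2 (4.26 to 62.7). Tnfr2KO replicate 2 stood apart in the share of late cells, 2.64% against 1.01% to 1.25%, and in their median mitochondrial percentage, 4.15% against 2.53% to 2.72%.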

How the results depend on the processing

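Several differences in share and ratio changed direction. Leaving out 1 mouse of 3 against 4 leaves too few to reach an exact p of 0.05, so those p-values say nothing about stability. Over all comparisons, leaving out 1 library reversed 10 differences of share and kept the direction of 19. For the ratio the counts were also 10 and 19. Thinning to 5000 UMIs turned the share of Dnmt3a against MxCre to 0.245, and of Tnfr2KO against Tnfr1KO-labelled to -0.221, and the ratio of the latter to -0.47. Without predicted doublets, Tnfr2KO against Dnmt3a became 0.011 (share) and 0.0169 (ratio). With Klf1 at least 3, the ratios against Dnmt3a became 0.000465 (Tnfr1KO-labelled) and 0.24 (Tnfr2KO). With at least 3000 UMIs, the share of Tnfr2KO against Tnfr1KO-labelled became -0.0218. Leaving out 1 library, the 4 share differences ran from -0.961 to 0.00964, -0.48 to 0.56, -0.411 to 0.642 and -0.384 to 0.438, and the ratios from -0.72 to 1.18, -0.75 to 1.14, -0.70 to 1.19 and -0.32 to 0.28.

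Called genes were 22, 15, 187 and 3 by DESeq2. Without a filter they were 250 and 2 in the last 2 comparisons, and with only the 2 groups compared 0 in Tnfr2KO against Dnmt3a. Without predicted doublets 1 gene was called there. Leaving out 1 library gave 0 to 187, 0 to 1, 0 to 1360 and 1 to 1. For the interaction, DESeq2 called 0 and 0 in the middle comparisons, no filter gave 5, 3, 111 and 10, removing doublets gave 0 and 0, and leaving out 1 library gave 0 to 3, 0 to 1, 0 to 2 and 0 to 0. The causes were not tested. Keeping the library of 14 cells, an alternative chosen after seeing the data, gave 0, 0, 2 and 1.

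Replicate numbers did not pair the mice (16 same-number pairs, correlation -0.33 to 0.284). With the number as a replicate block, edgeR called 0, 0, 2 and 2 genes, and Hba-a1 turned to -1.62 in Dnmt3a against MxCre and 1.36 in Tnfr1KO-labelled against Dnmt3a. Leaving out 1 library, its log2 fold change ran from -1.94 to 2.84, -2.85 to 2.0 and -4.89 to 0.137 in the first 3 comparisons, and it was reversed without Dnmt3a replicate 4. Depth per cell limits low transcripts such as Tnfrsf1b, which was too scarce to test.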
